A study of Oryza sativa Indica Group with 36 samples.

Results

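The 150 annotated genes described here were those whose transcripts reached their highest level in BT3H3, the seedlings of the rice line DC907 that had been kept for 3 days at 8 ℃ and then allowed to recover for 3 days. They were chosen from the deposited FPKM values (fragments per kilobase of gene, scaled to the size of the library, a level that is comparable between genes of different length). The 3 libraries of each of the 12 groups were averaged, 1 FPKM was added to each mean, and the BT3H3 mean was divided by the highest of the other 11 group means. The genes with the 150 highest ratios were taken, out of 40745 annotated genes and of 43254 genes listed in all. The level in BT3H3 was therefore used to choose the genes and is given below as a description, without a test. Comparisons among the other groups were tested. The choice kept the means of these groups below that of BT3H3 but did not set their order. In these tests the members are set beside all genes tested, which are not limited to genes that peak in BT3H3.

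The study compared the indica cultivar 9311, which is sensitive to cold, with DC907, a near-isogenic line that carries cold-tolerance loci brought into 9311. Seedlings were grown in nutrient solution to the four-leaf stage and the stems and leaves were sequenced. The DC907 groups were BCK (not cooled), BT1 (1 day of cold), BT1H1 and BT1H3 (1 day of cold and then 1 or 3 days of recovery), BT3 (3 days of cold), BT3H1 and BT3H3 (3 days of cold and then 1 or 3 days of recovery). The 9311 groups were ACK, AT1, AT1H1, AT3 and AT3H1, named in the same way, and no 9311 library of the third recovery day was analysed here. All cold treatments were at 8 ℃. Each cultivar had a single group that was not cooled, and the labels do not give its day of harvest. A difference of a treated group from it may therefore also hold a difference in seedling age. The labels name no pooling of plants, and DC907 is a single line, so differences between the cultivars are those of this line.

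Between 10176660 and 18789555 counts fell on genes in each of the 36 libraries, with a median of 16621963, and the BT3H3 libraries held 16084160 to 18789555. The 6 libraries labelled AT3 or AT3H1 went against their labels. At 78 genes that separated the cultivars in the other groups, each of these libraries had the level of DC907 in 82.1% of the genes or more. The BT3H3 libraries had it in 96.2% to 97.4%. ACK, AT1 and AT1H1, for which 86 to 112 genes were chosen without the group in question, had it in 29.5% or less. Checked in the same way, the DC907 groups were less clear, with 73.1% to 92.6% in BCK, 68.9% to 83.0% in BT1 and 88.4% to 91.9% in BT1H1. The values of the libraries labelled AT3 or AT3H1 are therefore reported under the label and not under a cultivar. Without them, 120 of the 150 genes would have been chosen again. No table used here pairs the identifiers with symbols, so the tissue could not be checked against its marker genes, and for most members only the identifier can be given.

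Cold slows growth and photosynthesis in rice, a plant of warm climates, and seedlings brought back to warmth have to restart both while damaged proteins are removed and stored sugars are used. MYB transcription factors are DNA-binding proteins that act in development, secondary metabolism and stress responses of plants. Ubiquitin transferases attach ubiquitin to proteins and so mark many of them for breakdown by the proteasome.

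The members together had a median level of 31.9 FPKM in BT3H3 and of 1.40 to 9.96 FPKM in the other 11 groups. The median over the members was 3.71 FPKM in BCK, 2.35 in BT1, 9.96 in BT1H1 and 9.03 in BT1H3. Along the longer cold it was 1.40 FPKM in BT3, 7.44 in BT3H1 and 31.9 in BT3H3. In 9311 it was 2.69 FPKM in ACK, 1.81 in AT1 and 5.37 in AT1H1, and the libraries labelled AT3 and AT3H1 had 2.24 and 4.49. The members thus stood lowest in the seedlings at the end of the longer cold and were next highest, after BT3H3, in the groups that were recovering. They took 1.86% to 2.80% of the counts in the BT3H3 libraries and 0.126% to 0.990% in the others. In these bulk samples more RNA per cell and more cells of a type that carries these transcripts cannot be told apart.

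**Figure D1:**
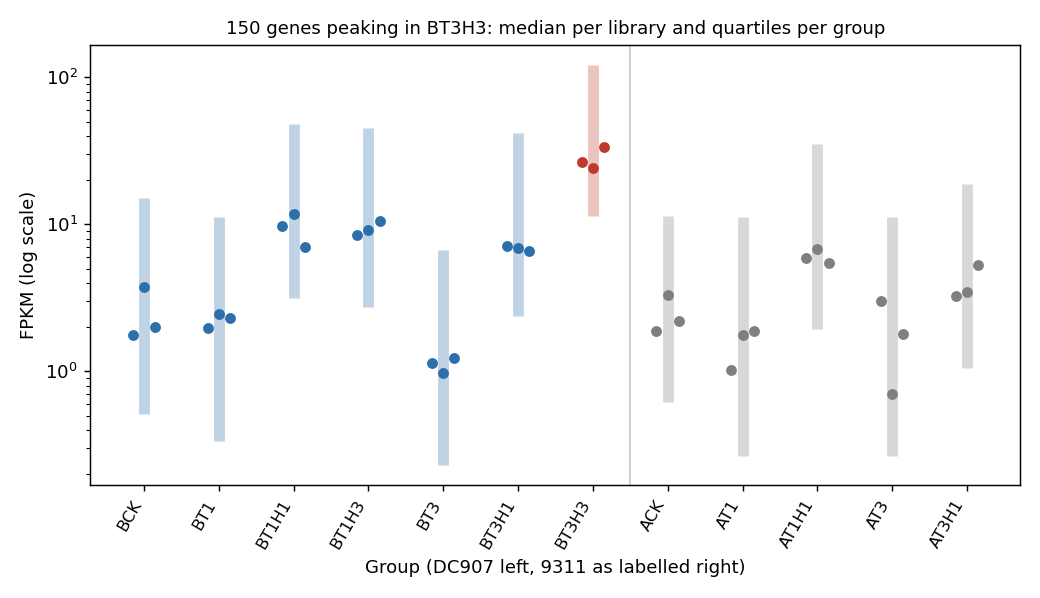
Level of the 150 members by group, in FPKM on a log scale. Points are the median over the members in each of the 3 libraries, and bars run from the lower to the upper quartile of the members' group means. The BT3H3 points lie at 24.1 to 33.4 FPKM, and the highest of the other libraries, of BT1H1, at 11.8.

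The BT3H3 level differed more than 1000-fold among the members, with means of 1.35 to 3061 FPKM. It was at least 10 FPKM for 119 members, at least 100 for 45 and at least 1000 for 9. The ratio to the next highest group, with 1 FPKM added to both, ran from 1.83 to 5.60 with a median of 2.17. Every member had at least 57 counts over the 3 BT3H3 libraries, with a median of 1547.5. In 67 members the mean was at least 1 FPKM in all 12 groups, 68 lay below 1 FPKM in BT3, and 11 reached 1 FPKM in no group other than BT3H3. The members were shorter than other genes, with a median length of 835.5 bases against 993 bases over the 33652 annotated genes with counts.

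The members of highest mean level were 5 genes with 1722 to 3061 FPKM in BT3H3. BGIOSGA016012, to which no source used here gives a name, had 3537, 2400.4 and 3245 FPKM in the BT3H3 libraries, against 766, 442 and 475 in BCK. In BT3 it had 113, 29.8 and 65.4 FPKM, and its highest value outside BT3H3 was 1906 FPKM in a BT1H1 library. All 3 BT3H3 libraries thus lay above the other 33, although every library of BT1H1, BT1H3 and BT3H1 already lay above those of BCK. BGIOSGA037315 had 2846, 2691 and 1360.3 FPKM in BT3H3, and a single BT1H1 library had 2264 where the other libraries of that group had 402 and 405. BGIOSGA037480 had 3219.7, 1142 and 805 FPKM in BT3H3, but the BCK, ACK and AT1H1 libraries reached 1229, 1119.8 and 1517. Both of these genes therefore overlapped with other groups.

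The other members of this level are a MYB gene and an alpha-galactosidase gene. BGIOSGA005283, one of the MYB transcription factor genes named in the study, had 2975, 1959.8 and 1166 FPKM in BT3H3, against 108, 131 and 239.8 in BCK. Along the longer cold it had 9.41, 0.933 and 1.45 FPKM in BT3 and 581, 384 and 295 in BT3H1. Its highest library outside BT3H3 was one of AT1H1 with 725 FPKM, so that the BT3H3 libraries stood above all of the others and the BT3 libraries below all of DC907. BGIOSGA033189, read as an alpha-galactosidase from the labels of a heatmap in the study, had 2639, 1638 and 1238 FPKM in BT3H3, against 346, 269.8 and 308 in BCK. Alpha-galactosidases release galactose from sugars such as raffinose, which plants build up in the cold. The highest library of BGIOSGA033189 outside BT3H3 was one of BT1H1 with 974 FPKM.

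Of the members with a name, 6 are left. BGIOSGA015677, a ubiquitin-transferase gene, had 656, 765 and 1585 FPKM in BT3H3, against 44.4, 45.2 and 51.4 in BCK. Its levels in BT3 were 14.5, 3.78 and 6.11 FPKM and those in BT3H1 were 193, 179 and 170.5. The highest library outside BT3H3 was one of BT1H1 with 522 FPKM, and the groups BT3, BCK, BT3H1 and BT3H3 did not overlap in this gene. BGIOSGA019054, another MYB gene, had 1525, 1203 and 479 FPKM in BT3H3, against 93.9, 169 and 153 in BCK. Replicate 3 of BT3H3 lay below the libraries of AT1H1, at 678, 549.8 and 516 FPKM, and below the highest one of BT1H1, at 801 FPKM. BGIOSGA002218 was read as a transcription factor gene from a heatmap of the study, where it is shown with the MYB genes. It had 137, 102 and 92.0 FPKM in BT3H3, against 21.8, 37.1 and 40.2 in BCK. In BT3 it had 4.22, 2.64 and 2.43 FPKM, and its highest library outside BT3H3 had 55.6 FPKM, in BT3H1.

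The remaining named members varied more among the BT3H3 libraries. BGIOSGA000635 was read from a heatmap label as a WAT1-related protein, a family whose founding member exports auxin from the vacuole in Arabidopsis. It had 19, 49.1 and 2.09 FPKM in BT3H3, against 0.841, 1.84 and 1.63 in BCK. Replicate 3 thus lay among the other groups, of which AT1H1 reached 10.5 FPKM. BGIOSGA016651, read from a heatmap label as a transcription factor gene, had 13.6, 30.6 and 42.5 FPKM in BT3H3, against 0, 3.14 and 0.201 in BCK. A library of AT1 reached 20.9 FPKM in this gene. BGIOSGA002748, another transcription factor gene by such a label, had 69.1, 158 and 468 FPKM in BT3H3, against 1.87, 20.4 and 4.22 in BCK. A BT1H3 library at 194 FPKM lay above replicates 1 and 2 of BT3H3 in this gene, and its place in the list came from replicate 3. The study tied 3 further genes to the recovery of DC907 that did not come near the limit of the list. BGIOSGA021307, BGIOSGA021806 and BGIOSGA029415 had scores of 0.09, 0.22 and -0.10, the score being the log2 of the ratio that chose the members. These genes were picked in the study on the same libraries, so the members among them are no independent evidence.

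**Figure D2:**
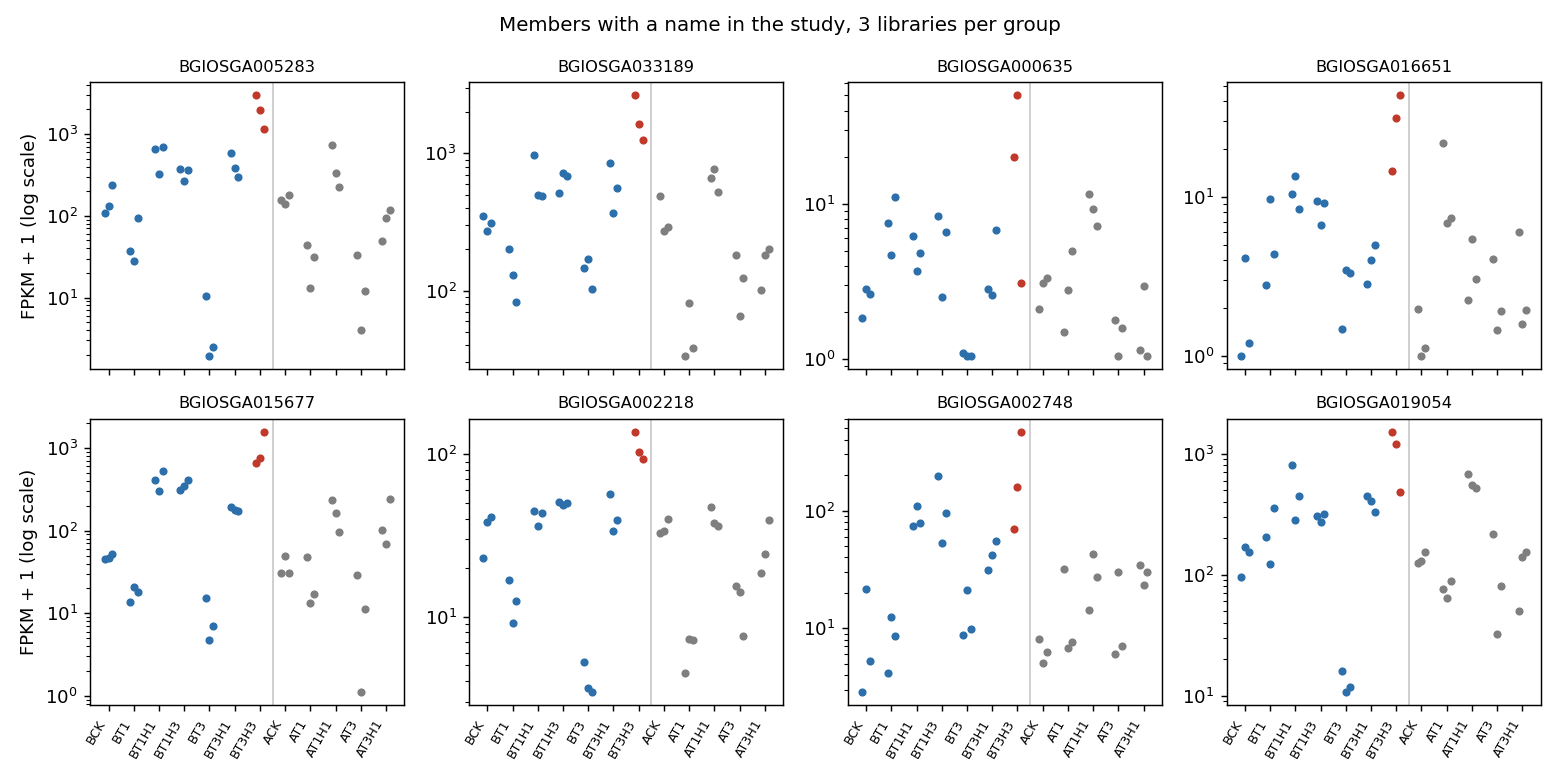
FPKM plus 1 on a log scale in the 36 libraries for the 8 members that the study names, with the DC907 groups to the left of the line and the 9311 groups, as labelled, to the right. Each point is a library, and BT3H3 is in red. The BT3H3 points lie above all others in BGIOSGA005283, BGIOSGA033189, BGIOSGA015677 and BGIOSGA002218, and overlap with other groups in the remaining 4.

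The members of highest score were mostly genes at which the 3 BT3H3 libraries disagreed. BGIOSGA035192, with the highest score (2.49), had 40.1, 17.2 and 1.84 FPKM in BT3H3, while a library of AT1 had 8.09 and all BCK and BT3 libraries had 0. BGIOSGA017879 (score 2.42) had 0.833, 9.56 and 46.0 FPKM. BGIOSGA014806 (2.29) had 1293, 112 and 1.78 FPKM, and its value in replicate 3 was lower than in all 3 libraries of BT1H3, at 33.8, 118 and 133. In these genes replicates 1 and 3 of BT3H3 stood at opposite ends, in either order.

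The same held for most of the others in the first 10. BGIOSGA022766 (2.17) had 1.94, 24.9 and 106 FPKM in BT3H3, and BGIOSGA011104 (1.90) had 88.2, 17.6 and 2.61. BGIOSGA008512 (2.0) had 445, 208 and 0 FPKM, and BGIOSGA028180 (1.88) had 16.7, 0 and 0. BGIOSGA036588 (2.06) had 11.4, 0.787 and 0.552 FPKM, all above the 0.515 of the highest other library. BGIOSGA014057 and BGIOSGA008529, with scores of 2.10 and 2.04, were the members of the first 10 in which no BT3H3 library came near the other groups. BGIOSGA014057 had 37.3, 32.1 and 48.3 FPKM in BT3H3, against 13.7 in the highest of the other libraries, of BT1H1. BGIOSGA008529 had 12.5, 12.2 and 35.1 FPKM, against 5.80 in the highest other library, also of BT1H1.

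Ranked instead by the ratio of the lowest BT3H3 library to the highest of the other 33, BGIOSGA014057 and BGIOSGA008529 were joined by 3 members. BGIOSGA004115 had 143, 107 and 109 FPKM in BT3H3, against 51.2 in the highest other library, of BT1H3. BGIOSGA017970 had 14.7, 15.9 and 11.5 FPKM, against 5.56 in BT1H1. BGIOSGA035758 had 21.5, 19.8 and 26.9 FPKM, against 10 in BT3H1. In BT3 these genes had at most 4.35, 0.150 and 0.106 FPKM, so that among the DC907 groups BT3 had their lowest mean and BT3H3 their highest. At the limit of the list, the last members BGIOSGA012189, BGIOSGA004210 and BGIOSGA013977 had scores of 0.87, and the first genes outside it, BGIOSGA018697, BGIOSGA014200 and BGIOSGA016908, had 0.87, 0.87 and 0.86.

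All 3 BT3H3 libraries lay above all 33 others in 59 of the 150 members, and this held for 1.01% of the 33652 annotated genes with counts, a contrast that the choice of members used. The highest of the 3 libraries was replicate 3 in 82 members, replicate 1 in 57 and replicate 2 in 11. With 1 FPKM added, the highest library exceeded the lowest by a median of 2.76-fold. The ratio was under 2 in 52 members and at least 10 in 31, of which 13 were highest in replicate 1, 3 in replicate 2 and 15 in replicate 3. In 27 members the mean of the remaining pair of libraries did not exceed the highest other group mean, so that 1 library carried the gene into the list: replicate 3 in 16, replicate 1 in 9 and replicate 2 in 2. Across the members, the Pearson correlation of log2 FPKM plus 1 was 0.91 between replicates 1 and 2, 0.72 between replicates 2 and 3 and 0.56 between replicates 1 and 3. Across annotated genes of at least 1 FPKM these correlations were 0.97, 0.93 and 0.92. Genes are not independent, and the choice of members favours a single high library, so no p is given.

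**Figure D3:**
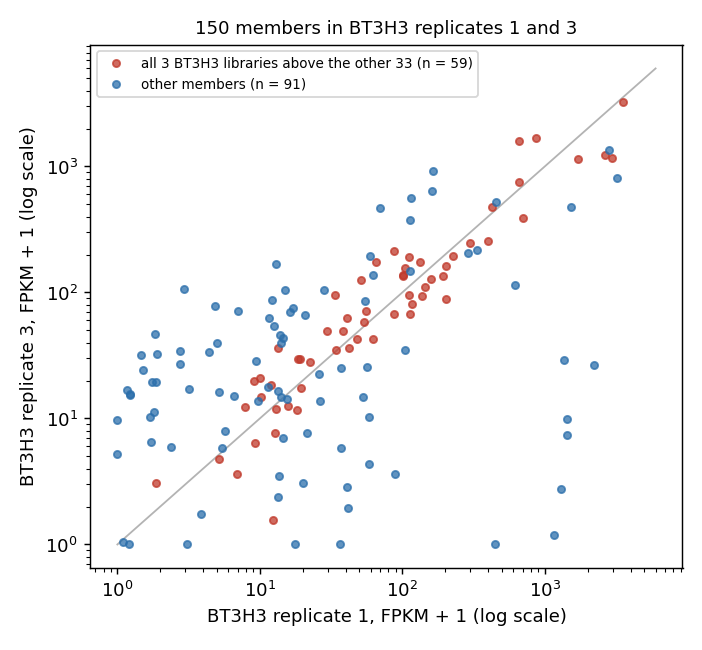
FPKM plus 1 of the 150 members in BT3H3 replicate 1 (horizontal, log scale) and replicate 3 (vertical, log scale), with the line of equal levels. Members with all 3 BT3H3 libraries above the other 33 (59, red) lie mostly near the line, and the others (91, blue) spread to both sides of it.

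A list chosen with 1 BT3H3 library left out shows how far that library, which the choice had not used, followed the others. Of 150 genes chosen without replicate 2, 126 had replicate 2 above all other group means, 84.0% against 7.94% of all annotated genes. Without replicate 1 these were 89 genes, 59.3% against 9.02%, and without replicate 3 they were 85 genes, 56.7% against 7.67%. The library left out thus lay above the other group means in most of the genes chosen, replicate 2 most often. Its median ratio to the highest other group mean, with 1 FPKM added, was 1.27, 1.44 and 1.15 for replicates 1, 2 and 3. Over the members the ratio had a median of 2.17. The library left out lay above all 33 others in 47.3%, 53.3% and 38.7% of the genes chosen. Over all annotated genes these shares were 3.99%, 2.95% and 3.32%. The other group means were used in the choice, so part of these contrasts is built in. The annotated genes also include genes without counts, which could not pass. The lists chosen without replicate 1, 2 or 3 held 110, 126 and 80 of the 150 members. Leaving out replicate 3 thus changed the list most. This library also had the largest total count, and whether that mattered was not tested.

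The next highest group after BT3H3 was a recovery group in 129 of the 150 members (86.0%), which can be set against 77.2% of the 3150 annotated genes whose highest group was BT3H3. It was BT1H1 in 47 members, BT1H3 in 38, BT3H1 in 23 and AT1H1 in 12. BT1H3, the third recovery day after the shorter cold, was next highest in 25.3% of the members and in 10.4% of the 3150 genes. For BT3H1, the first recovery day after the longer cold, the shares ran the other way, 15.3% of the members and 23.7% of the 3150 genes, and for BT1H1 they were 31.3% and 31.1%. Of the 134 members with a single lowest group, 46 were lowest in BT3 (34.3%, against 19.8% of the 3150 genes), whereas 98 were lowest in any of the 4 cold groups (73.1%, against 78.9%). With the libraries labelled AT3 and AT3H1 left out, the next highest group was a recovery group in 130.

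At the end of the longer cold, several of the members had fallen below the level of seedlings that were not cooled. In BT3 against BCK, the quasi-likelihood test of edgeR, adjusted by the method of Benjamini and Hochberg, could be run on 101 of the 150 members, the rest being too low in both groups. At an adjusted p under 0.05, 32 members fell, against 16.7% of all genes tested that did, and 3 members rose, against 17.2% of all genes tested. The median log2 fold change was -1.18 over the members tested and -0.09 over all genes tested. Without any filter, the mean FPKM was lower in BT3 than in BCK for 110 of the 150 members and for 46.5% of the annotated genes with counts. All 3 BT3 libraries lay below all BCK libraries in 54 members, against 18.1% of these genes. Without BT3 replicate 3, 9 members fell of 237 genes in all and 1 rose of 691, where all libraries gave 3896 genes that fell and 4002 that rose. Without BCK replicate 2, 7 members rose of 4034 genes.

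Among the members that fell were both MYB genes. BGIOSGA019054 had 14.8, 9.69 and 10.8 FPKM in BT3, against 93.9, 169 and 153 in BCK, a log2 fold change of -3.49 ± 0.35 (SE) with an adjusted p of 0.00485 in edgeR. BGIOSGA005283 had a log2 fold change of -5.23 ± 1.08 (SE, adjusted p = 0.0153). BGIOSGA002218, the gene shown beside them, fell by 3.35 ± 0.41 on the log2 scale (SE, adjusted p = 0.00599). The libraries of BT3 and BCK did not overlap in any of these 3 genes. BGIOSGA037724, which has no name in the sources used here, had 1.16, 2.24 and 1.75 FPKM in BT3, against 31.0, 23.1 and 20.5 in BCK (log2 fold change -3.91 ± 0.42, SE, adjusted p = 0.00517).

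The ubiquitin-transferase gene BGIOSGA015677 fell as well (-2.47 ± 0.59, SE, adjusted p = 0.0223). The WAT1-related BGIOSGA000635 had 0.0997, 0.0498 and 0.0503 FPKM in BT3, against 0.841, 1.84 and 1.63 in BCK, a change of -4.25 ± 0.62 (SE, adjusted p = 0.00781) that rests on 4 counts in BT3 and 88 in BCK. The alpha-galactosidase gene BGIOSGA033189 did not pass the test (-1.18 ± 0.40, SE, adjusted p = 0.0580 in edgeR), although its BT3 libraries, at 145, 169 and 101 FPKM, lay below those of BCK, at 346, 269.8 and 308. An opposite change was seen in BGIOSGA012177, which had 112, 62.1 and 95.2 FPKM in BT3, against 0.664, 2.30 and 0.268 in BCK (6.51 ± 0.82, SE, adjusted p = 0.00625). BGIOSGA033092 had 11.7, 48.2 and 29.5 FPKM in BT3, against 3.71, 2.92 and 2.39 in BCK (3.22 ± 0.53, SE, adjusted p = 0.00964). In BT3H3 they had 303 to 517 and 103 to 148 FPKM, so that these 2 members stood above BCK both in the cold and in late recovery. Without BT3 replicate 3 the change of BGIOSGA033092 no longer passed the test.

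After the first day of recovery from the longer cold, most of the members that could be tested had risen. In BT3H1 against BT3, 78 of 119 members tested rose, against 23.9% of all genes tested, and 1 fell, again against 23.9%. The median log2 fold change was 2.24 over the members tested and 0.03 over all genes. The mean FPKM was higher in BT3H1 than in BT3 for 139 of all 150 members and for 51.0% of the annotated genes with counts, and all 3 libraries lay above all 3 in 110 members, against 28.4%. Without BT3 replicate 3, 61 members of 3273 genes in all rose, and without BT3 replicate 1, 83 of 5699. These were the lowest and highest member counts with a single library left out. This comparison and the preceding one share the BT3 libraries, so a low BT3 level enters both.

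The smallest p belonged to the MYB gene BGIOSGA019054, with 449.8, 404 and 329 FPKM in BT3H1, against 14.8, 9.69 and 10.8 in BT3 (log2 fold change 4.67 ± 0.31, SE, adjusted p = 0.000529 in edgeR). BGIOSGA013977, the last gene of the list, had 56.7, 39.0 and 33.7 FPKM in BT3H1, against 1.42, 2.74 and 2.27 in BT3 (3.98 ± 0.31, SE, adjusted p = 0.000602). Neither gene had overlapping libraries. The other named members that rose were BGIOSGA005283 (6.28 ± 1.06, SE, adjusted p = 0.00429), BGIOSGA015677 (4.05 ± 0.58, SE, adjusted p = 0.00261) and BGIOSGA002218 (3.38 ± 0.38, SE, adjusted p = 0.00123). The alpha-galactosidase gene BGIOSGA033189 (1.74 ± 0.38, SE, adjusted p = 0.0103), BGIOSGA000635 (5.07 ± 0.83, SE, adjusted p = 0.00383) and BGIOSGA002748 (1.46 ± 0.38, SE, adjusted p = 0.0208) rose too. BGIOSGA016651 did not pass the test (0.43 ± 0.61, SE, adjusted p = 0.590). The member that fell was BGIOSGA037480, with 175, 99.9 and 116 FPKM in BT3H1, against 386, 196 and 372 in BT3 (-1.68 ± 0.39, SE, adjusted p = 0.0134). Its BT3H3 libraries, at 805 FPKM or more, lay above all of both groups. In the fit of all 36 libraries its fall did not pass the test.

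**Figure D4:**
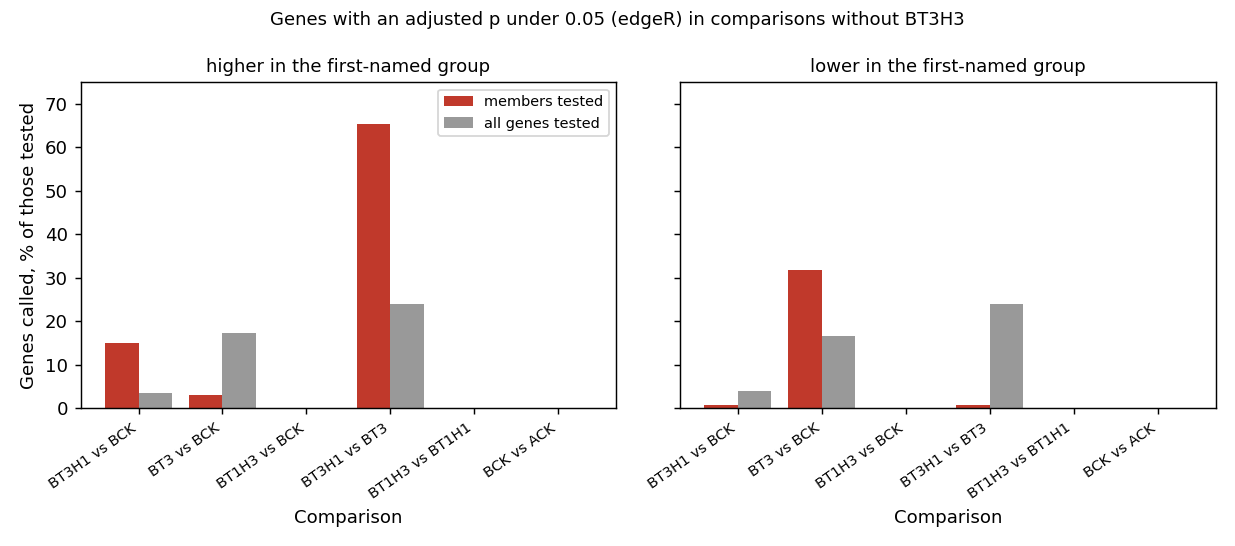
Share of genes, in percent of those tested, with an adjusted p under 0.05 in edgeR, for the members (red) and for all genes tested (grey), in the 6 comparisons without BT3H3. The left panel counts genes higher in the group named first and the right panel those lower. The members stand at 65.5% against 23.9% for genes higher in BT3H1 than in BT3, and at 31.7% against 16.7% for genes lower in BT3 than in BCK.

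Compared with seedlings that were not cooled, part of the members already stood higher on the first recovery day. Recovery and a difference in seedling age cannot be told apart in this comparison. In BT3H1 against BCK, 18 of 120 members tested rose, against 3.54% of all genes tested, and 1 fell, against 3.87%. The median log2 fold change was 1.09 over the members tested and -0.05 over all genes. The mean FPKM was higher in BT3H1 than in BCK for 131 of all 150 members and for 53.0% of the annotated genes with counts, and all 3 libraries lay above all 3 in 79 members, against 23.8%. Both the 18 members and the 819 genes that rose in all depended on single libraries. Without BT3H1 replicate 1, 2 or 3, 0 members and 0 of all genes were called in edgeR. Higher in BT3H1 were 10 members of 465 genes without BCK replicate 1, 7 of 199 without BCK replicate 3 and 20 of 1303 without BCK replicate 2. The member that fell was not called without BCK replicate 3, where 383 genes fell in all.

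BGIOSGA004891 had 2.88, 5.63 and 4.33 FPKM in BT3H1, against 0.111, 0.153 and 0.175 in BCK (log2 fold change 4.43 ± 0.47, SE, adjusted p = 0.0176 in edgeR). This gene had 0.894, 1.82 and 31.2 FPKM in BT3H3 and 1.84, 6.99 and 6.09 in ACK, so that replicates 1 and 2 of BT3H3 lay below all libraries of ACK. BGIOSGA033092 had 60.5, 36.8 and 91.3 FPKM in BT3H1, against 3.71, 2.92 and 2.39 in BCK (3.99 ± 0.48, SE, adjusted p = 0.0232). The ubiquitin-transferase gene BGIOSGA015677 rose by 1.53 ± 0.22 on the log2 scale (SE, adjusted p = 0.0267). The MYB genes BGIOSGA019054 (1.13 ± 0.27, SE, adjusted p = 0.0553) and BGIOSGA005283 (0.98 ± 0.42, SE, adjusted p = 0.166) did not pass the test, although their BT3H1 libraries all lay above those of BCK. BGIOSGA037480 had 175, 99.9 and 116 FPKM in BT3H1, against 1229, 514 and 357 in BCK (-2.89 ± 0.60, SE, adjusted p = 0.0453).

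After the shorter cold, the third recovery day was compared with BCK and with the first recovery day. In BT1H3 against BCK, 0 of 126 members tested passed in either direction in edgeR, as did 0% of all genes tested. At an unadjusted p under 0.05, 63 of these members were higher, against 13.2% of all genes tested, and 0 were lower, against 17.2%. DESeq2 called 65 of 142 members higher, against 8.35% of all genes, and 0 lower, against 12.5%. On counts simulated for BT3H1 and BCK, DESeq2 made 116 false calls and edgeR 11. The median log2 fold change in edgeR was 1.42 over the members tested and -0.10 over all genes. All 3 BT1H3 libraries lay above all BCK libraries in 99 of all 150 members, against 20.1% of the annotated genes with counts, and all 3 lay below in 0, against 9.27%. In edgeR, 45 members of 1353 genes in all were higher without BCK replicate 2, and 23 of 257 without BCK replicate 1. As an example, BGIOSGA015677 had 314, 348 and 404 FPKM in BT1H3, against 44.4, 45.2 and 51.4 in BCK (2.63 ± 0.27, SE, adjusted p = 0.0538 in edgeR). BT3H1, BT3 and BT1H3 were all set against the same BCK libraries, so these 3 comparisons are not independent.

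Between the third and the first recovery day after the shorter cold, the members had no common direction. In BT1H3 against BT1H1, 0 of 135 members tested were called in either direction in edgeR, against 0.0218% of all genes tested that were higher and 0% that were lower. At an unadjusted p under 0.05, 4 members were higher and 6 lower, against 7.74% and 6.23% of all genes tested, and DESeq2 called 2 higher and 1 lower, against 3.85% and 2.35%. The log2 fold changes of the members tested had a median of -0.00 and quartiles of -0.38 and 0.36. For the MYB gene BGIOSGA005283, the BT1H3 libraries had 377, 267 and 361 FPKM and those of BT1H1 658, 321 and 688, so that the groups overlapped (-0.61 ± 0.34, SE, adjusted p = 0.465 in edgeR). After the longer cold, the same gene had 1166 to 2975 FPKM in BT3H3, against 295 to 581 in BT3H1, a difference that the choice of members required.

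Before any cold, few members were called between the cultivars, and few genes in all. In BCK against ACK, 0 of 106 members tested were called in edgeR, against 0.0176% of all genes tested that were higher and 0.0263% that were lower. At an unadjusted p under 0.05, 3 members were higher and 2 lower, against 0.983% and 1.16% of all genes tested, and DESeq2 called 1 higher and 3 lower, against 0.218% and 0.446%. The median log2 fold change was 0.25 over the members tested, with quartiles of -0.31 and 0.69, and -0.01 over all genes. It was positive in 65.1% of the members tested and in 49.3% of all genes tested. BGIOSGA004891 had 0.111, 0.153 and 0.175 FPKM in BCK, against 1.84, 6.99 and 6.09 in ACK, and these libraries did not overlap (-4.96 ± 0.68, SE, adjusted p = 0.122 in edgeR and 6.72e-08 in DESeq2).

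Some members stood in neighbouring rows of the deposited tables. There were 6 such pairs among 10 genes, and the 2 members of a pair had a median Pearson correlation of 0.79 over the 36 libraries in log2 FPKM plus 1, beside 0.55 over all pairs of members. Both values include the BT3H3 libraries, whose mean chose the members. The WAT1-related BGIOSGA000635 and its neighbour BGIOSGA000634 had the highest correlation (0.94), followed by BGIOSGA004114 and BGIOSGA004115 (0.91). The third member by score, BGIOSGA014806, stood beside BGIOSGA014807 (0.89), which stood beside BGIOSGA014808 (0.69). Whether reads could be shared between such neighbours was not tested, since their sequences were not used here.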

How the data were processed

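RNA-seq counts and FPKM of 36 rice libraries in 12 groups of 3 were used, grouped by the labels. Reads had been aligned by the authors to the indica genome (HISAT2) and new genes assembled (Cufflinks, Cuffcompare), and raw counts per gene and FPKM were deposited. The counting program and strand setting are not given in the sources used here. The deposited FPKM were scaled by the authors to gene length and library total. Replicates were called biological by the study. Library totals were 10176660 counts or more, and precision was judged from the spread of the 3 replicates.

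The members were chosen with a pseudocount of 1 FPKM. The members, the lists and the comparisons were chosen with earlier results of these data known. Counts were tested with edgeR 4.0.16 in R 4.3.3 (quasi-likelihood test, TMM, filterByExpr, robust dispersions, 6 libraries per fit, no block), with Benjamini-Hochberg adjustment over all genes tested and a threshold of 0.05. SE was obtained as log2 fold change over the root of the F statistic. The test was tried on counts simulated for BT3H1 and BCK, with known changes of 2 or 4 in log2. Of these, edgeR recovered 20 of 100 genes and 77 of 99, with 11 false calls. DESeq2 recovered 66 of 100 and 96 of 100, with 116 false calls. A gene that was not called in edgeR may therefore still have changed, and a gene called only in DESeq2 may not have. The changes were placed only in genes above a low mean level, so recovery at low levels was not tried. Genes separating the cultivars had every library of a cultivar above every one of the other in CK, T1 and T1H1, by at least 2 in log2 of CPM plus 0.1 between the means. Named were the 10 members of highest score, the 5 of highest BT3H3 mean, the 5 with the largest ratio of the lowest BT3H3 library to the highest other library, those the study names, 3 genes on either side of the limit, the recovery genes of the study and up to 2 called members of smallest p per direction and comparison. Further values of these genes and the neighbouring rows were added after they were seen. Alternatives comprised median-ratio size factors, DESeq2 1.42.0, leaving out the filter, a joint fit of the 36 libraries, a block for the replicate number, other pseudocounts, medians, TMM-scaled FPKM and leaving out libraries. Leaving out each BT3H3 library in the count of members above all others, and the libraries labelled AT3 and AT3H1 in the next highest group, were added after seeing the data.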

Additional observations from a re-analysis of the deposited data

Results flagged for a closer look

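The new genes, which the authors assembled from the reads and which the choice of members left out, held 18 genes with a score at or above that of the last member, 0.717% of the 2509 new genes, beside 0.368% of the annotated genes. They were singled out because they are data outside the list and the comparisons. The annotated genes include some without counts, whereas new genes were found from reads of these libraries, so the shares have unlike bases. In 6 of the 18, all 3 BT3H3 libraries lay above the other 33 libraries. Novel02050 had 52.6, 50.3 and 97.3 FPKM in BT3H3, against 29.9 in the highest of the other libraries. Novel00358, with the highest score (1.71), had 0.305, 1.52 and 9.0 FPKM in BT3H3, against 0.681 in the highest of the others.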

How the results depend on the processing

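Of the 150 members, 81 would have been chosen from the medians of the 3 libraries, 80 without BT3H3 replicate 3 and at most 126 without another BT3H3 replicate, 107 and 116 with a pseudocount of 0.1 or 5 FPKM, and 127 from TMM-scaled FPKM. All remaining BT3H3 libraries lay above the other 33 in 71 to 83 members when 1 was left out. DESeq2 called 47 members higher in BT3H1 than in BCK (34.6% of those tested, against 9.69% of all genes), 5 higher in BT3 than in BCK (3.73%, against 20%), 65 higher in BT1H3 than in BCK (45.8%, against 8.35%) and 2 lower in BT3H1 than in BT3 (1.38%, against 25.3%). It called 2 higher and 1 lower in BT1H3 than in BT1H1 (1.44% and 0.719%, against 3.85% and 2.35%), and 1 higher and 3 lower in BCK than in ACK (0.746% and 2.24%, against 0.218% and 0.446%). A single fit of all 36 libraries called 33 members of 1898 genes in all higher in BT3H1 than in BCK, 36 of 1140 higher in BT1H3 than in BCK and 0 of 4999 lower in BT3H1 than in BT3, and leaving out the filter called 3 of 21 higher in BT1H3 than in BCK. Apart from the values given here and those that follow for the block and for left-out libraries, the counts stayed within 1.5 times the reported ones. The causes of these differences were not tested.

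The replicate number as a block called 0 members and 0 of all genes in BT3H1 against BCK, and 6 members of 3708 genes higher in BT3 than in BCK. In no comparison were the correlations of same-numbered libraries above 0.1 in all 3 pairs. They were 0.21, -0.22 and 0.05 for BT3H1 and BCK, and all positive, 0.56, 0.18 and 0.03, for BT3 and BCK. The numbers were therefore not taken as pairs, and at most 1 of the 3 libraries correlated best with its own number.

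Leaving out 1 library changed the number of genes called in all, which is given in brackets, along with that of the members. In BT3H1 against BCK, 0 to 20 members were higher (0 to 1303) and 0 to 1 lower (0 to 1777). In BT3 against BCK, 1 to 7 were higher (691 to 4034) and 9 to 34 lower (237 to 3727). In BT1H3 against BCK, 0 to 45 were higher (0 to 1353). In BT3H1 against BT3, 61 to 83 were higher (3273 to 5699) and 1 to 2 lower (4179 to 6020). In BT1H3 against BT1H1, 0 members were called, with 0 to 195 genes in all higher and 0 to 652 lower. In BCK against ACK, 0 members were called, with 0 to 3 genes higher and 0 to 13 lower. The 10 results of single members in the comparisons kept their direction in every alternative fit, 95 of which also passed the test and 15 of which did not. At these depths, between 15 and 49 members were too low to be tested with edgeR in a comparison.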
